A study of Mus musculus with 20 samples.

Results

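The genes described here are 54 genes for non-collagen matrix glycoproteins, proteoglycans and matrix crosslinkers, measured in mouse hearts with OGFOD1 intact (wild type, WT) or lost (knockout, KO). They were given as a list of symbols, found by stripping the version from each Ensembl gene ID and matching it to GENCODE vM21, and sorted into 8 classes by the role of the protein. All 54 were among the 55335 genes of the count table, and all 54 were among the 14878 genes that passed the filter on low counts. The hearts came from C57BL/6N mice aged 3 to 5 months and fed an NIH-31 diet, which carried an osmotic minipump for 2 weeks. The pump delivered vehicle (sodium ascorbate in phosphate-buffered saline) or vehicle to which isoproterenol had been added. Isoproterenol activates beta-adrenergic receptors and is given over weeks to make the heart hypertrophy. The 4 groups were WT vehicle, WT isoproterenol, KO vehicle and KO isoproterenol, with 5 libraries each, so that sodium ascorbate and the pump were common to every group. OGFOD1 is an oxygenase that hydroxylates a prolyl residue of a ribosomal protein. The labels state neither the allele of the knockout nor whether each library came from a separate mouse. The p-values therefore weigh a difference against the spread between libraries, which may not be the spread between mice.

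The extracellular matrix of the heart is a network of fibrillar collagen around muscle bundles, with basement membranes around each myocyte and capillary and elastic fibres in vessel walls. The proteins described here organise that network. Adhesive and matricellular glycoproteins link it to cell receptors, small proteoglycans set the spacing of collagen fibrils, microfibril proteins and fibulins carry elastin, and enzymes of the lysyl oxidase family join collagen and elastin chains by covalent bonds. Most are secreted by fibroblasts, some by smooth muscle, endothelium or myocytes, and many are known to rise when the heart remodels under load.

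Total counts per library ranged from 14609808 to 43671055. Levels are in CPM, counts scaled to library size, and the values of each gene are given in the order of replicates 1 to 5. Replicate numbers pair no libraries. The label of the tissue was met by the 8 cardiomyocyte markers, which summed to 46384 CPM or more in each library, and Ogfod1 read 16.9 to 21.8 CPM in WT against 2.39 to 4.13 CPM in KO libraries. One library stood apart for the matrix, and another in genes outside it. For 37 of the 54 members KO isoproterenol replicate 5 was the highest library of its group, which held for 28.8% of all tested genes. Elastin (Eln) read 1961 CPM there against 32.8 to 43.8 CPM in the other 4, Col1a1 read 379 against 26.0 to 56.4 CPM, and Col3a1 read 1031 against 185 to 324 CPM. Lesser Eln peaks were in WT vehicle replicate 1 (189 against 27.6 to 48.2 CPM) and WT isoproterenol replicate 3 (192 against 37.2 to 68.6 CPM). KO vehicle replicate 1 read 149 against 27.3 to 76.2 CPM of Eln. In KO isoproterenol replicate 5, 8 of the 10 smooth muscle markers lay above the other 4 libraries, and their sum was 2119 CPM against at most 1372 CPM. Their median difference from the other 4 was 1.34 on the log2 scale, and that of the adipocyte markers was 1.25 (4 of 5 above). Erythroid and platelet markers had 0.68 (5 of 8 above) and summed to 648 CPM against at most 412 CPM. Of the 7 pericyte markers 4 lay above, of the 10 fibroblast markers 4, and of the 8 cardiomyocyte markers 0, with a median of −0.37. In RNA from whole hearts, fewer or more cells of a type and less or more RNA per cell cannot be told apart. The part of these cell types in the values of that library was not tested. Results in the KO are given with and without it wherever leaving it out turned a direction, changed a call or moved a value by over 1.5 times. The other library, WT vehicle replicate 2, read 9505 CPM of Gm42418 against 82.1 to 198 CPM in the other 19, and its counts differed from those of its group by a chi-square per degree of freedom of 21.3 to 27.5, where other pairs of WT vehicle libraries had 3.68 to 5.75. On the same measure KO isoproterenol replicate 5 differed from its group by 17.8 to 24.7, where other pairs of KO isoproterenol libraries had 3.26 to 4.09. WT vehicle replicate 2 was the highest of its group for 15 of the 54 members and for 26.6% of all tested genes.

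Isoproterenol raised 20 of the 54 members in WT hearts and lowered 2, and it raised 35 in KO hearts and lowered 0. Among all tested genes, 4.64% rose and 4.12% fell in WT, and 4.75% rose and 4.29% fell in KO, at an edgeR adjusted p under 0.05. The 20 members that rose in WT were also among those that rose in KO, a pattern that 2.02% of all tested genes showed. The median log2 fold change of the members was 0.34 in WT and 0.56 in KO, against 0.00 and 0.01 over all tested genes. Both comparisons use separate vehicle groups, and every value is in CPM or on the log2 scale of its ratio. In WT, 23 members had all 5 isoproterenol libraries above all 5 vehicle libraries, and 25 did in KO, where 4.29% and 3.75% of all tested genes did. The KO count was again 25 without KO isoproterenol replicate 5 (5.2% of all tested genes). Another 17 members passed in neither genotype. The 3 members with a negative log2 fold change in KO, Efemp1, Lamb1 and Lamb2, had an unadjusted p above 0.05, and DESeq2 and limma-voom called 0 lower there. Ecm2, Serpinh1 and Ogn turned negative too when KO isoproterenol replicate 5 was left out.

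The number of members that rose in KO hearts depended on which libraries were kept. On leaving out 1 library the lowest number was 24, without KO vehicle replicate 2. Without WT vehicle replicate 2 it was 31 (4.89% of all tested genes). Without KO isoproterenol replicate 5, 28 members rose in KO (4.08% of all tested genes) and 1 fell (3.48%), and the median log2 fold change there was 0.40. The same fit called 27 members higher in WT (6% of all tested genes) and 24 members in both genotypes. For those 24 no share of all tested genes is given. The log2 fold changes of the members in WT moved by at most 0.006 between the fits with and without KO isoproterenol replicate 5, while their adjusted p-values changed. Thbs1, Comp, Fbn1, Fbln1, Emilin1, Mfap2 and Olfml3 lost their call in KO, and Fn1, Tnc, Sparc, Fstl1, Mfap5, Pcolce2 and Mgp gained one in WT. The log2 fold change in KO exceeded that in WT for 40 of 54 members with the library and for 24 without it. A fit of the KO groups alone lost 10 of the KO calls (adjusted p 0.0809 to 0.182), those of Tnc, Thbs1, Sparc, Fstl1, Fbn1, Mfap4, Mfap5, Pcolce2, Olfml3 and Mgp.

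**Figure D1:**
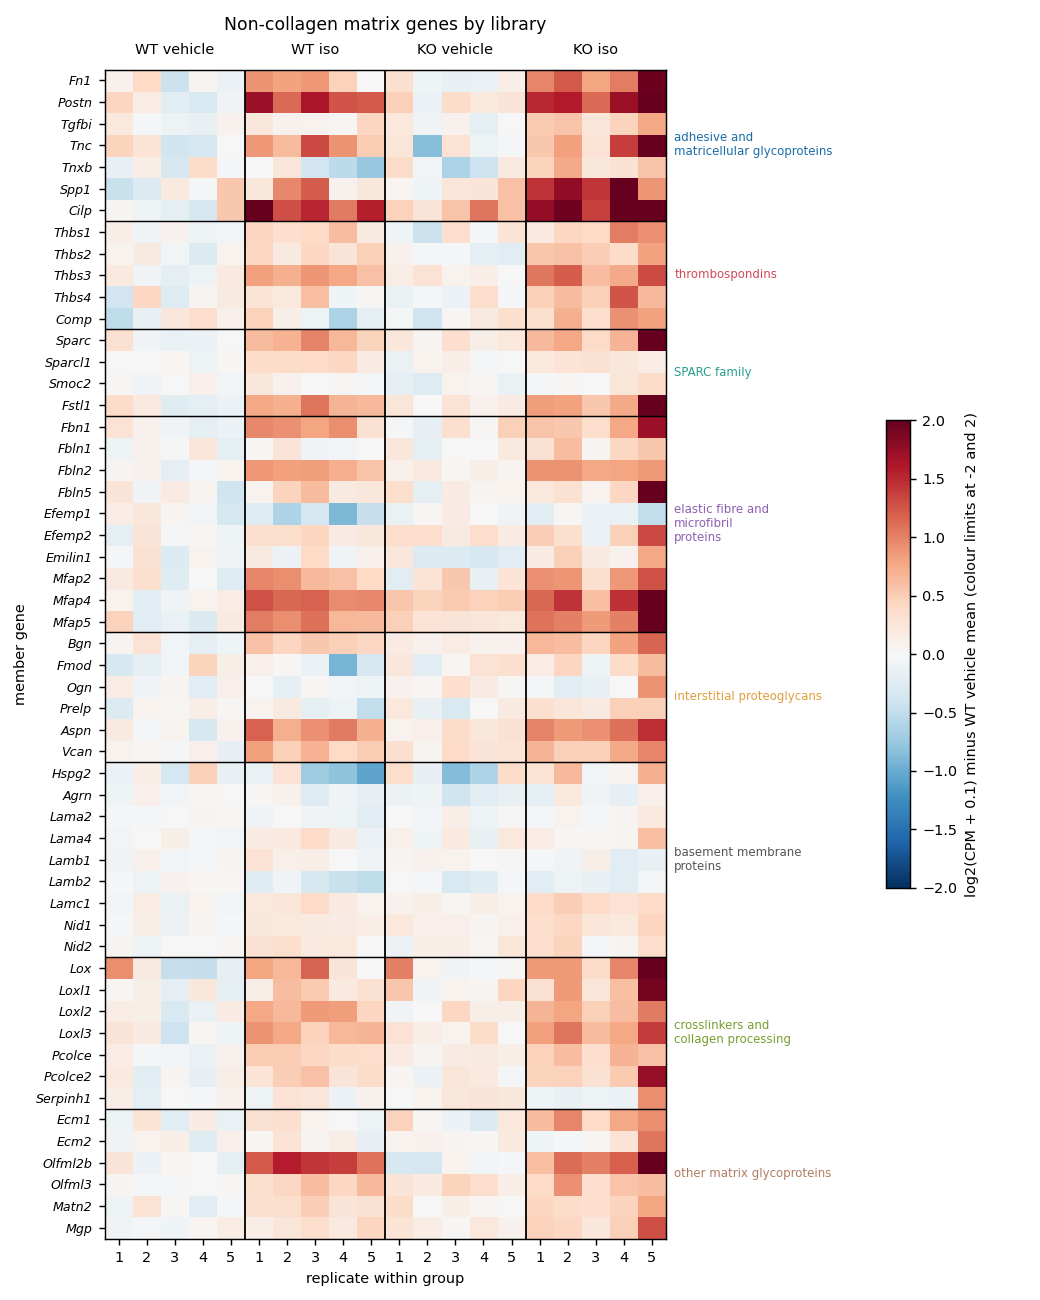
Heat map of the 54 members (rows, grouped by class) in the 20 libraries (columns, 5 per group). Colour gives log2 CPM minus the mean of the gene over the WT vehicle libraries, limited at both ends of the scale. Most rows turn red in both isoproterenol groups, and in 37 rows the last column, KO isoproterenol replicate 5, is the highest of its group.

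Adhesive and matricellular glycoproteins had the highest median log2 fold change of the 8 classes, 0.63 in WT and 1.35 in KO. In WT 2 of 7 rose, Cilp and Postn, and in KO 6 of 7 rose, the exception being Tnxb. Cilp, a cartilage intermediate layer protein that cardiac fibroblasts secrete, measured 10.2, 9.08, 8.63, 7.82 and 14.3 CPM in the WT vehicle libraries and 43.8, 23.9, 28.4, 20.2 and 28.9 CPM in the WT isoproterenol libraries. Cilp in the KO measured 13.5, 11.8, 14.5, 20.7 and 14.8 CPM under vehicle and 33.2, 38.1, 25.3, 43.4 and 51.6 CPM under isoproterenol. The isoproterenol libraries of each genotype lay above its vehicle libraries without overlap, and the lowest of them was WT isoproterenol replicate 4. For Cilp the log2 fold change with isoproterenol was 1.52 (SE 0.243, edgeR adjusted p = 0.000763) in WT. In KO Cilp had 1.35 (SE 0.232, adjusted p = 0.00133), or 1.22 (adjusted p = 0.0039) without KO isoproterenol replicate 5.

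Postn, periostin, a collagen-binding protein of activated fibroblasts, measured 52.0, 42.7, 33.3, 31.0 and 36.6 CPM in the WT vehicle libraries and 127, 84.8, 119.8, 92.0 and 90.4 CPM in the WT isoproterenol libraries. Postn in the KO measured 53.6, 35.5, 49.5, 44.6 and 46.0 CPM under vehicle and 109, 116, 84.8, 127 and 386 CPM under isoproterenol. Neither genotype's groups overlapped, and KO isoproterenol replicate 5 stood far above every other library. The Postn log2 fold change with isoproterenol was 1.40 (SE 0.337, edgeR adjusted p = 0.0161) in WT. In KO Postn had 1.85 (SE 0.338, adjusted p = 0.00236), or 1.26 (adjusted p = 0.000211) without KO isoproterenol replicate 5. Without replicate 5 the KO value of Postn was below its WT value. Postn is ENSMUSG00000027750, GRCm38 chromosome 3, 54361109 to 54391037, forward strand. RefSeq gives Postn a pair of start sites, and the window before the downstream one, chr3:54360857-54361106 (GRCm38.p6, forward strand), holds a TATA box, shown in capitals because it is the only one of the searched motifs in either window.
Postn: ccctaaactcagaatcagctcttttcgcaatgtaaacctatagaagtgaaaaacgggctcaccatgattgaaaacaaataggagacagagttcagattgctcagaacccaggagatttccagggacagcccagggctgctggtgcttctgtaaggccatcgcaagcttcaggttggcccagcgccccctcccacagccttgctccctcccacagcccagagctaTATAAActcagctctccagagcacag
The box starts 26 bases before the RefSeq start. Of all 27025 genes with a RefSeq promoter window of 250 bases, 14.33% hold TATAAA on either strand, and 7 of the 38 members with a window did (18.42%). The 7 were Postn, Tnc, Spp1, Thbs2, Ogn, Aspn and Ecm1, of which Postn, Thbs2 and Aspn rose in both genotypes. A match is a description of the letters and not a measured site.

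Tgfbi, an integrin-binding protein named for its induction by TGF-beta, measured 13.7, 11.5, 11.0, 10.6 and 12.5 CPM in the WT vehicle libraries and 13.8, 12.5, 12.4, 12.0 and 15.9 CPM in the WT isoproterenol libraries. Tgfbi in the KO measured 13.6, 11.2, 12.5, 10.4 and 11.7 CPM under vehicle and 17.0, 17.6, 14.0, 16.1 and 20.3 CPM under isoproterenol. WT groups overlapped, while each KO isoproterenol library lay above each KO vehicle library. Tgfbi had a log2 fold change with isoproterenol of 0.16 (SE 0.0998, edgeR adjusted p = 0.363) in WT. In KO Tgfbi had 0.52 (SE 0.0977, adjusted p = 0.000767), or 0.45 (adjusted p = 0.00291) without KO isoproterenol replicate 5.

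Spp1, osteopontin, an adhesive phosphoprotein of macrophages and injured tissue, measured 0.357, 0.419, 0.619, 0.515 and 0.809 CPM in the WT vehicle libraries and 0.635, 1.11, 1.35, 0.562 and 0.629 CPM in the WT isoproterenol libraries. Spp1 in the KO measured 0.542, 0.490, 0.640, 0.649 and 0.842 CPM under vehicle and 1.60, 2.03, 1.58, 2.84 and 1.05 CPM under isoproterenol. All values were low, at or under 2.84 CPM, and KO isoproterenol replicate 5 was the lowest of its group. For Spp1 the log2 fold change with isoproterenol was 0.60 (SE 0.318, edgeR adjusted p = 0.257) in WT. In KO Spp1 had 1.48 (SE 0.280, adjusted p = 0.000823), or 1.63 (adjusted p = 0.000168) without KO isoproterenol replicate 5. Spp1 was the member whose KO fold change grew most when that library was left out. The exons of Spp1 overlap those of another annotated gene on the same strand.

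The other members of the class were given values after their levels were seen. Fn1, fibronectin, measured 68.3, 84.5, 47.7, 66.6 and 59.1 CPM in the WT vehicle libraries and 120.2, 112, 117, 88.6 and 64.3 CPM in the WT isoproterenol libraries. Fn1 in the KO measured 80.0, 60.5, 58.1, 58.3 and 70.4 CPM under vehicle and 127, 151, 111, 131 and 249 CPM under isoproterenol. WT isoproterenol replicate 5 lay within the vehicle range, and KO isoproterenol libraries did not overlap KO vehicle libraries. The Fn1 log2 fold change with isoproterenol was 0.63 (SE 0.222, edgeR adjusted p = 0.093) in WT. In KO Fn1 had 1.23 (SE 0.223, adjusted p = 0.00214), or 0.99 (adjusted p = 0.00342) without KO isoproterenol replicate 5. Tnc, tenascin, a matricellular protein of injured tissue, measured 5.10, 4.54, 2.82, 2.93 and 3.78 CPM in the WT vehicle libraries and 6.87, 5.82, 9.46, 7.07 and 5.38 CPM in the WT isoproterenol libraries. Tnc in the KO measured 4.46, 2.04, 4.60, 3.48 and 3.68 CPM under vehicle and 5.49, 6.67, 4.58, 9.88 and 29.6 CPM under isoproterenol. In the KO the lowest isoproterenol library, replicate 3, read just under the highest vehicle library, and in WT the groups did not overlap. Tnc had a log2 fold change with isoproterenol of 0.87 (SE 0.458, edgeR adjusted p = 0.272) in WT. In KO Tnc had 1.67 (SE 0.442, adjusted p = 0.0251), or 0.88 (adjusted p = 0.038) without KO isoproterenol replicate 5. The Tnc call in KO was lost without KO vehicle replicates 2, 4 or 5 (adjusted p up to 0.0686). Tnxb, a tenascin of loose connective tissue, read 119 to 189 CPM in WT vehicle and 87.3 to 174 CPM in WT isoproterenol libraries, which overlapped. Its log2 fold change was −0.26 (SE 0.208, adjusted p = 0.507) in WT and 0.54 (SE 0.208, adjusted p = 0.125) in KO.

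**Figure D2:**
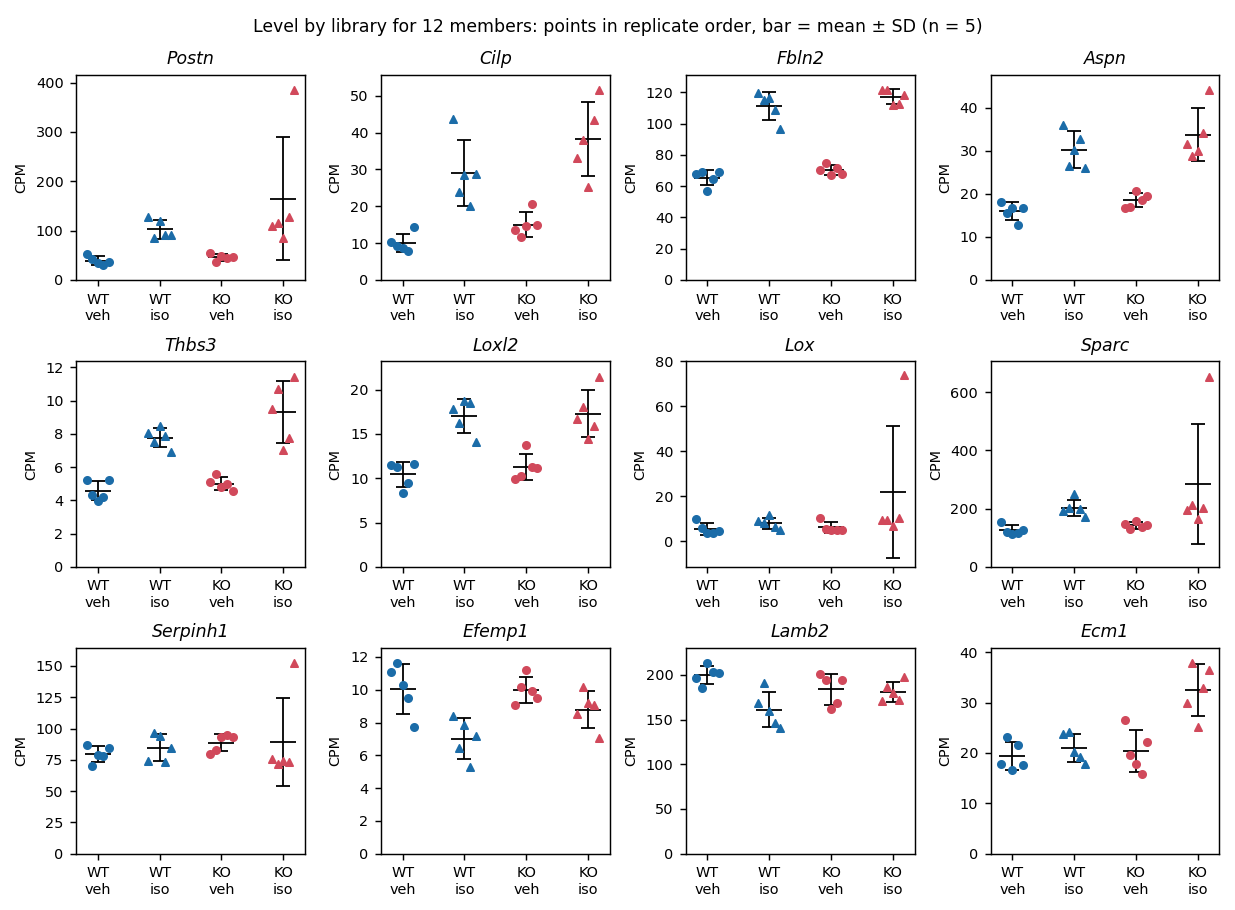
CPM (vertical axes, linear) of 12 members in each library of the 4 groups. Points are libraries in replicate order, the long bar is the mean and the whiskers are the SD (n = 5). Postn, Cilp, Fbln2, Aspn, Thbs3, Loxl2 and Sparc are higher in both isoproterenol groups. For Lox, Sparc and Serpinh1, KO isoproterenol replicate 5 lies far above the rest of its group.

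The thrombospondins are calcium-binding glycoproteins that act on matrix assembly and cell adhesion. In WT 2 of 5 rose and in KO 5 of 5 rose, or 3 of 5 without KO isoproterenol replicate 5. Thbs3, a thrombospondin that forms pentamers, measured 5.20, 4.33, 3.95, 4.22 and 5.22 CPM in the WT vehicle libraries and 8.09, 7.53, 8.46, 7.87 and 6.92 CPM in the WT isoproterenol libraries. Thbs3 in the KO measured 5.08, 5.62, 4.80, 5.01 and 4.55 CPM under vehicle and 9.53, 10.7, 7.04, 7.78 and 11.4 CPM under isoproterenol. No isoproterenol library overlapped the vehicle libraries of its genotype. For Thbs3 the log2 fold change with isoproterenol was 0.76 (SE 0.123, edgeR adjusted p = 0.000116) in WT. In KO Thbs3 had 0.90 (SE 0.119, adjusted p = 9.81e-06), or 0.81 (adjusted p = 3.22e-05) without KO isoproterenol replicate 5. Thbs2, a thrombospondin of fibroblasts, measured 22.5, 24.5, 20.9, 17.9 and 22.6 CPM in the WT vehicle libraries and 28.6, 24.4, 28.8, 25.8 and 30.1 CPM in the WT isoproterenol libraries. Thbs2 in the KO measured 22.9, 21.3, 21.2, 18.8 and 18.7 CPM under vehicle and 31.8, 32.4, 30.3, 27.9 and 37.8 CPM under isoproterenol. WT isoproterenol replicate 2 read just under the highest WT vehicle library, and the KO groups did not overlap. The Thbs2 log2 fold change with isoproterenol was 0.34 (SE 0.0861, edgeR adjusted p = 0.0107) in WT. In KO Thbs2 had 0.64 (SE 0.0855, adjusted p = 9.81e-06), or 0.58 (adjusted p = 1.67e-05) without KO isoproterenol replicate 5. Thbs4, a thrombospondin induced in the loaded heart, measured 3.11, 5.52, 3.40, 4.27 and 4.68 CPM in the WT vehicle libraries and 4.97, 4.75, 6.25, 3.87 and 4.19 CPM in the WT isoproterenol libraries. Thbs4 in the KO measured 3.75, 4.00, 3.77, 5.28 and 4.05 CPM under vehicle and 5.74, 6.41, 5.78, 9.94 and 6.52 CPM under isoproterenol. WT groups overlapped, and in the KO they did not. Thbs4 had a log2 fold change with isoproterenol of 0.20 (SE 0.168, edgeR adjusted p = 0.513) in WT. In KO Thbs4 had 0.72 (SE 0.162, adjusted p = 0.00463), or 0.74 (adjusted p = 0.00667) without KO isoproterenol replicate 5. KO isoproterenol replicate 4, not replicate 5, was the highest library for Thbs4.

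Thbs1 and Comp, the cartilage oligomeric matrix protein, rose in KO and did not pass in WT. In KO they had log2 fold changes of 0.59 (adjusted p = 0.0229) and 0.60 (adjusted p = 0.048), or 0.51 (adjusted p = 0.0668) and 0.55 (adjusted p = 0.116) without replicate 5. Their WT values were 0.40 (adjusted p = 0.13) and −0.08 (adjusted p = 0.846), and the difference between genotypes passed for neither (adjusted p = 0.854 and 0.554). The Thbs1 call was lost without KO vehicle replicates 1, 2 or 4, or KO isoproterenol replicates 4 or 5 (adjusted p up to 0.0668). The Comp call was lost without WT vehicle replicates 2, 3 or 5, WT isoproterenol replicates 2, 3 or 5, KO vehicle replicates 1, 2, 3 or 4, or KO isoproterenol replicates 2, 4 or 5 (adjusted p up to 0.117).

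The SPARC family are collagen-binding and growth factor-binding glycoproteins. In WT 1 of 4 rose, or 3 of 4 in the fit without KO isoproterenol replicate 5, and in KO 3 of 4 rose with or without it. Sparcl1, SPARC-like protein, also called hevin, measured 185, 185, 189, 170.3 and 187 CPM in the WT vehicle libraries and 237, 236, 239.5, 245 and 205 CPM in the WT isoproterenol libraries. Sparcl1 in the KO measured 168, 192, 201, 178 and 184 CPM under vehicle and 213, 222, 227, 214 and 203 CPM under isoproterenol. In WT vehicle hearts it had the highest level per kilobase of the 54 members, and the groups did not overlap in either genotype. For Sparcl1 the log2 fold change with isoproterenol was 0.35 (SE 0.0601, edgeR adjusted p = 0.000319) in WT. In KO Sparcl1 had 0.23 (SE 0.0601, adjusted p = 0.0149), or 0.25 (adjusted p = 0.00667) without KO isoproterenol replicate 5. Sparc, a collagen-binding protein needed for collagen deposition, measured 154, 119.5, 114, 115 and 126 CPM in the WT vehicle libraries and 193, 202, 249, 198 and 170.0 CPM in the WT isoproterenol libraries. Sparc in the KO measured 145, 129, 158, 135 and 144 CPM under vehicle and 195, 214, 163, 201 and 653 CPM under isoproterenol. Isoproterenol libraries lay above vehicle libraries in both genotypes, and KO isoproterenol replicate 5 stood far above the next library. The Sparc log2 fold change with isoproterenol was 0.69 (SE 0.295, edgeR adjusted p = 0.17) in WT. In KO Sparc had 1.00 (SE 0.296, adjusted p = 0.0432), or 0.44 (adjusted p = 0.00804) without KO isoproterenol replicate 5. The WT value of Sparc passed without KO isoproterenol replicate 5 (adjusted p = 4.78e-05) at the same fold change of 0.69. The KO call of Sparc was lost without WT vehicle replicates 2, 3, 4 or 5, WT isoproterenol replicates 1, 2, 3, 4 or 5, or KO vehicle replicates 1, 2, 3, 4 or 5 (adjusted p up to 0.0912).

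Fstl1, a follistatin-like glycoprotein secreted by the injured heart, measured 65.6, 58.4, 43.1, 44.2 and 46.9 CPM in the WT vehicle libraries and 87.3, 83.8, 107, 81.8 and 79.6 CPM in the WT isoproterenol libraries. Fstl1 in the KO measured 60.5, 50.9, 61.3, 54.2 and 56.9 CPM under vehicle and 90.7, 88.6, 73.9, 86.2 and 312 CPM under isoproterenol. The groups did not overlap in either genotype, and replicate 5 of KO isoproterenol stood far above the rest. Fstl1 had a log2 fold change with isoproterenol of 0.77 (SE 0.322, edgeR adjusted p = 0.158) in WT. In KO Fstl1 had 1.20 (SE 0.322, adjusted p = 0.0261), or 0.58 (adjusted p = 0.00251) without KO isoproterenol replicate 5. Its WT value passed without that library (log2 fold change 0.77, adjusted p = 6.25e-05). The KO call of Fstl1 was lost without KO vehicle replicates 2, 4 or 5 (adjusted p up to 0.0633). Smoc2, a SPARC-related modular protein, passed in neither genotype, with 0.06 in WT and 0.23 in KO (adjusted p = 0.709 and 0.0565). It passed in KO by DESeq2 (adjusted p = 0.0467) and without WT isoproterenol replicate 1, KO vehicle replicate 3, or KO isoproterenol replicates 1 or 3 (adjusted p 0.032 to 0.0492).

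Of the 10 elastic fibre and microfibril genes, 4 rose and 1 fell in WT, and 7 rose in KO, or 3 without KO isoproterenol replicate 5. Eln itself, which that library held at 1961 CPM, is not a member. Fbln2, a fibulin that binds fibronectin, perlecan and elastin, measured 67.5, 69.3, 57.1, 64.5 and 68.8 CPM in the WT vehicle libraries and 119.5, 115, 116, 108 and 96.5 CPM in the WT isoproterenol libraries. Fbln2 in the KO measured 70.1, 74.9, 67.4, 71.9 and 67.6 CPM under vehicle and 122, 122, 112, 113 and 118 CPM under isoproterenol. The groups were far apart in both genotypes, and KO isoproterenol replicate 5 lay within the range of the other 4. For Fbln2 the log2 fold change with isoproterenol was 0.77 (SE 0.064, edgeR adjusted p = 2.01e-09) in WT. In KO Fbln2 had 0.74 (SE 0.0638, adjusted p = 5.40e-09), or 0.74 (adjusted p = 4.68e-09) without KO isoproterenol replicate 5. Fbln2 had the smallest p of the 54 members in WT and in KO, and leaving out that library did not move its value. Fbln2 is ENSMUSG00000064080, GRCm38 chromosome 6, 91212455 to 91272540, forward strand. Efemp1, a fibulin of elastic tissues, measured 11.1, 11.6, 10.3, 9.52 and 7.73 CPM in the WT vehicle libraries and 8.37, 6.42, 7.86, 5.27 and 7.20 CPM in the WT isoproterenol libraries. Efemp1 in the KO measured 9.09, 10.1, 11.2, 9.92 and 9.47 CPM under vehicle and 8.53, 10.2, 9.16, 9.09 and 7.03 CPM under isoproterenol. WT isoproterenol libraries were lower, with 2 of 5 above the lowest WT vehicle library. The Efemp1 log2 fold change with isoproterenol was −0.53 (SE 0.121, edgeR adjusted p = 0.00506) in WT. In KO Efemp1 had −0.18 (SE 0.119, adjusted p = 0.383), or −0.10 (adjusted p = 0.686) without KO isoproterenol replicate 5. Mfap2, a glycoprotein of fibrillin microfibrils, measured 1.12, 1.26, 0.812, 0.978 and 0.809 CPM in the WT vehicle libraries and 2.02, 1.97, 1.60, 1.52 and 1.33 CPM in the WT isoproterenol libraries. Mfap2 in the KO measured 0.834, 1.21, 1.47, 0.881 and 1.21 CPM under vehicle and 1.95, 1.90, 1.25, 1.87 and 2.53 CPM under isoproterenol. Levels were low, and the lowest KO isoproterenol library lay under the highest KO vehicle library. Mfap2 had a log2 fold change with isoproterenol of 0.78 (SE 0.213, edgeR adjusted p = 0.0184) in WT. In KO Mfap2 had 0.78 (SE 0.204, adjusted p = 0.0133), or 0.65 (adjusted p = 0.0574) without KO isoproterenol replicate 5. The Mfap2 call was lost in WT without WT vehicle replicates 3 or 5 (adjusted p up to 0.0566) and in KO without KO isoproterenol replicate 5 (adjusted p = 0.0574).

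Fbn1, fibrillin and the backbone of microfibrils, rose on the log2 scale by 0.79 (adjusted p = 0.0371) in WT and 0.74 (adjusted p = 0.0498) in KO. It read 128, 125, 111, 148 and 283 CPM in KO isoproterenol libraries, and without the last of these the KO value was 0.43 (adjusted p = 0.103). The Fbn1 call was lost in WT without WT vehicle replicates 2, 3, 4 or 5, or WT isoproterenol replicates 1, 2, 3 or 4 (adjusted p up to 0.0888), and in KO without WT vehicle replicates 1, 2, 3, 4 or 5, WT isoproterenol replicates 1, 2, 3 or 4, KO vehicle replicates 1, 2, 3 or 4, or KO isoproterenol replicates 4 or 5 (adjusted p up to 0.113). Mfap4, a microfibril glycoprotein, rose by 1.10 (adjusted p = 0.0334) in WT and 1.21 (adjusted p = 0.0138) in KO, without overlap of groups. The KO value of Mfap4 was 0.70 (adjusted p = 0.000224) without replicate 5, and its WT call was lost without WT vehicle replicates 1, 2, 3, 4 or 5, or WT isoproterenol replicates 1, 2, 3 or 4 (adjusted p up to 0.0708). Mfap5, another microfibril glycoprotein, rose by 1.25 (adjusted p = 0.0152) in KO, or 0.71 (adjusted p = 0.000358) without replicate 5. In WT Mfap5 had 0.86 (adjusted p = 0.105), which passed without that library (adjusted p = 1.44e-05). In a fit of the KO groups alone the calls of Mfap4 and Mfap5 were lost (adjusted p = 0.112 and 0.101).

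Fbln1, a fibulin of blood vessels and valves, and Emilin1, an elastin interface protein, rose in KO by 0.34 (adjusted p = 0.026) and 0.52 (adjusted p = 0.0183), or 0.31 and 0.39 without replicate 5. The Fbln1 call was lost without KO vehicle replicates 2, 3 or 4, or KO isoproterenol replicates 2, 4 or 5 (adjusted p up to 0.0836), and the Emilin1 call without KO vehicle replicates 2 or 4, or KO isoproterenol replicate 5 (adjusted p up to 0.0537). Fbln5, a fibulin needed for elastic fibre assembly, passed in neither genotype. It read 15.0, 10.4, 13.2, 12.3 and 12.4 CPM in KO vehicle and 13.7, 14.6, 12.4, 15.8 and 66.8 CPM in KO isoproterenol libraries. The KO log2 fold change of Fbln5 was 0.99 (SE 0.390) with replicate 5 and 0.16 (SE 0.127) without it. Efemp2, a fibulin that brings lysyl oxidase to elastin, passed in neither (0.31 in WT and 0.32 in KO). Without replicate 5 the KO value of Efemp2 was 0.04 (SE 0.120), and without KO isoproterenol replicate 3 it passed (0.45, adjusted p = 0.048).

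The interstitial proteoglycans split evenly: Aspn, Vcan and Bgn rose in both genotypes, and Ogn, Prelp and Fmod passed in neither, with or without KO isoproterenol replicate 5. Aspn, asporin, a collagen-binding small leucine-rich protein, measured 18.1, 15.6, 16.8, 12.8 and 16.8 CPM in the WT vehicle libraries and 36.0, 26.4, 30.1, 32.8 and 26.1 CPM in the WT isoproterenol libraries. Aspn in the KO measured 16.8, 17.0, 20.6, 18.5 and 19.6 CPM under vehicle and 31.7, 28.8, 29.9, 34.1 and 44.2 CPM under isoproterenol. No isoproterenol library overlapped the vehicle libraries of its genotype. For Aspn the log2 fold change with isoproterenol was 0.92 (SE 0.114, edgeR adjusted p = 1.17e-05) in WT. In KO Aspn had 0.87 (SE 0.112, adjusted p = 2.01e-05), or 0.76 (adjusted p = 2.70e-06) without KO isoproterenol replicate 5. Vcan, versican, a large hyaluronan-binding proteoglycan of provisional matrix, measured 27.2, 26.6, 25.3, 27.7 and 23.2 CPM in the WT vehicle libraries and 45.8, 36.0, 42.2, 34.2 and 37.0 CPM in the WT isoproterenol libraries. Vcan in the KO measured 32.3, 27.0, 33.8, 31.0 and 31.4 CPM under vehicle and 41.7, 36.3, 36.3, 44.0 and 51.3 CPM under isoproterenol. Here too the groups stood apart in both genotypes. The Vcan log2 fold change with isoproterenol was 0.58 (SE 0.0903, edgeR adjusted p = 7.73e-05) in WT. In KO Vcan had 0.43 (SE 0.0891, adjusted p = 0.002), or 0.35 (adjusted p = 0.00631) without KO isoproterenol replicate 5. Bgn, biglycan, a small leucine-rich proteoglycan on collagen fibrils, measured 78.5, 92.1, 72.7, 66.6 and 71.2 CPM in the WT vehicle libraries and 114, 102, 109.7, 105 and 101 CPM in the WT isoproterenol libraries. Bgn in the KO measured 84.9, 80.5, 84.0, 80.3 and 80.6 CPM under vehicle and 119.8, 116, 102, 132 and 170.3 CPM under isoproterenol. The highest vehicle library, WT replicate 2, read under the lowest WT isoproterenol library. Bgn had a log2 fold change with isoproterenol of 0.48 (SE 0.0977, edgeR adjusted p = 0.00237) in WT. In KO Bgn had 0.64 (SE 0.0975, adjusted p = 0.000114), or 0.52 (adjusted p = 1.56e-05) without KO isoproterenol replicate 5. The 3 that passed in neither read 43.4 to 94.6 CPM (Ogn), 32.4 to 63.7 CPM (Prelp) and 4.45 to 13.4 CPM (Fmod). Their log2 fold changes in WT were −0.07, −0.09 and −0.27, and in KO 0.05, 0.34 and 0.17 (adjusted p in KO 0.906, 0.063 and 0.626). Without KO isoproterenol replicate 5 the KO values were −0.21, 0.31 and 0.08 (adjusted p 0.0918, 0.146 and 0.868), so that Ogn changed sign. Prelp passed in KO in 9 alternatives (adjusted p 0.000836 to 0.0495), namely DESeq2, limma-voom, no filter on low counts, a fit of the KO groups alone, and leaving out WT vehicle replicate 1, WT isoproterenol replicates 2 or 5, KO vehicle replicate 1 or KO isoproterenol replicate 3.

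Aspn, Ogn and Ecm2 are neighbours on chromosome 13, all on the forward strand, and of these Aspn rose while the others did not pass. Ecm2 spans 49504810 to 49532789, Aspn 49544443 to 49567565 and Ogn 49608046 to 49624501 (GRCm38), with gaps of 11.65 kb and 40.48 kb between them. The log2 fold changes were 0.07 (SE 0.174), 0.92 (SE 0.114) and −0.07 (SE 0.163) in WT, and 0.25 (SE 0.171), 0.87 (SE 0.112) and 0.05 (SE 0.162) in KO. Without KO isoproterenol replicate 5 the KO values were −0.04, 0.76 and −0.21. The differences among the 3 genes were not tested. Their RefSeq promoter windows, the 250 bases before each start, are set side by side because 1 of these neighbours rose and the others did not pass. Capitals mark TATAAA on either strand and, in Ogn, also GGAATG, the core of the TEAD motif. The windows are chr13:49504560-49504809, chr13:49544193-49544442 and chr13:49607765-49608014 on GRCm38.p6.
Ecm2: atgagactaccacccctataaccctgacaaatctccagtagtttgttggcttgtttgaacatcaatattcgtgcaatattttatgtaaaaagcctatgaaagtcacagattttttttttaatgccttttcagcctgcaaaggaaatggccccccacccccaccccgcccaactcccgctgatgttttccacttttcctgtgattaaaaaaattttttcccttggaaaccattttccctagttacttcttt
Aspn: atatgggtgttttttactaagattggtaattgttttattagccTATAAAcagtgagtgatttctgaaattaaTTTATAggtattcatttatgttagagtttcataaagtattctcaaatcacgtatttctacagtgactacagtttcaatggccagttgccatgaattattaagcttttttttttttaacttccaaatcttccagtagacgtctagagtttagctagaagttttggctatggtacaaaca
Ogn: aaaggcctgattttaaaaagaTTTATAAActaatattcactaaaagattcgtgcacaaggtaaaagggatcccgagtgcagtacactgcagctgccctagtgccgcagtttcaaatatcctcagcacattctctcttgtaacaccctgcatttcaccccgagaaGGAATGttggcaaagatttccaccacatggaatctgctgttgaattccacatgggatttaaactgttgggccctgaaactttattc
The matches in Aspn start 207 and 178 bases before its start, and the Ecm2 window holds none of the motifs searched. The cyclic AMP response element TGACGTCA was in 1.769% of all windows and in 0 of the 38 members' windows. AP-1 (TGANTCA) was in 7.819% of all and in 3 members, GGAATG in 14.36% and 5, and the CArG box in 1.624% and 1. The exons of Aspn overlap those of Cenpp on the opposite strand, and the strand setting of the counting was not given, so that the value of Aspn is uncertain to that extent.

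Basement membrane genes had the lowest median of the classes. Of 9, 2 rose and 1 fell in WT, and 2 rose in KO, with or without KO isoproterenol replicate 5, and the median log2 fold change was 0.10 in WT and 0.15 in KO. Lamc1, the gamma chain found in most laminins, measured 158, 183, 150.4, 173 and 159 CPM in the WT vehicle libraries and 189, 194, 214, 188 and 172 CPM in the WT isoproterenol libraries. Lamc1 in the KO measured 175, 178, 169, 177 and 172 CPM under vehicle and 214, 230.0, 215, 200.1 and 215 CPM under isoproterenol. The KO groups did not overlap, and the WT groups did. For Lamc1 the log2 fold change with isoproterenol was 0.22 (SE 0.0618, edgeR adjusted p = 0.0243) in WT. In KO Lamc1 had 0.30 (SE 0.0618, adjusted p = 0.00171), or 0.31 (adjusted p = 0.00168) without KO isoproterenol replicate 5. Nid1, nidogen, which joins laminin to collagen IV, measured 112, 126, 107, 121 and 113 CPM in the WT vehicle libraries and 135, 133, 131, 129 and 127 CPM in the WT isoproterenol libraries. Nid1 in the KO measured 134, 125, 125, 120.4 and 124 CPM under vehicle and 148, 154, 137, 134 and 155 CPM under isoproterenol. Every isoproterenol library lay above the vehicle libraries of its genotype, by a small margin. The Nid1 log2 fold change with isoproterenol was 0.18 (SE 0.0577, edgeR adjusted p = 0.0475) in WT. In KO Nid1 had 0.22 (SE 0.0576, adjusted p = 0.0154), or 0.20 (adjusted p = 0.0317) without KO isoproterenol replicate 5. Lamb2, a laminin beta chain of muscle and vessel basement membranes, measured 196, 185, 213, 203 and 202 CPM in the WT vehicle libraries and 169, 191, 159, 146 and 140.4 CPM in the WT isoproterenol libraries. Lamb2 in the KO measured 201, 194, 162, 168 and 195 CPM under vehicle and 170.2, 186, 179, 172 and 197 CPM under isoproterenol. Only WT isoproterenol replicate 2 lay within the range of the WT vehicle libraries. Lamb2 had a log2 fold change with isoproterenol of −0.31 (SE 0.0747, edgeR adjusted p = 0.00758) in WT. In KO Lamb2 had −0.02 (SE 0.0746, adjusted p = 0.906), or −0.05 (adjusted p = 0.76) without KO isoproterenol replicate 5. The WT call of Lamc1 was lost without WT vehicle replicates 1, 3 or 5, or WT isoproterenol replicates 2 or 3 (adjusted p up to 0.0952). The Nid1 call was lost in WT without WT vehicle replicates 1, 3, 4 or 5, WT isoproterenol replicates 1, 2, 3, 4 or 5, KO vehicle replicates 2, 3, 4 or 5, or KO isoproterenol replicate 1 (adjusted p up to 0.131) and in KO without KO isoproterenol replicate 2 (adjusted p = 0.0514).

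Hspg2, perlecan, varied widely within each group. It read 429, 513, 365, 649 and 419 CPM in WT vehicle and 424, 567, 283, 266 and 223 CPM in WT isoproterenol libraries. Hspg2 in KO libraries read 595, 416, 254, 302 and 599 CPM under vehicle and 560.1, 728, 447, 487 and 759 CPM under isoproterenol. The groups overlapped in both genotypes, with log2 fold changes of −0.43 (SE 0.289) in WT and 0.46 (SE 0.288) in KO, or 0.36 without replicate 5, and none passed. Agrn, Lama2, Lama4, Lamb1 and Nid2, which are further laminin chains, agrin and a nidogen, had log2 fold changes of −0.07, −0.09, 0.17, 0.10 and 0.22 in WT. In KO they were 0.18, 0.06, 0.13, −0.11 and 0.15, and none of the 5 passed in either genotype. Those of Lama2 and Lama4 in KO were 0.02 and 0.00 without KO isoproterenol replicate 5.

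Among the 7 crosslinking and collagen-processing genes, Loxl2, Loxl3 and Pcolce rose in both genotypes and Pcolce2 rose in KO. Loxl2, a lysyl oxidase-like enzyme of activated fibroblasts, measured 11.5, 11.3, 8.36, 9.47 and 11.6 CPM in the WT vehicle libraries and 17.8, 16.3, 18.7, 18.5 and 14.0 CPM in the WT isoproterenol libraries. Loxl2 in the KO measured 9.88, 10.3, 13.8, 11.3 and 11.2 CPM under vehicle and 16.7, 18.0, 14.5, 15.9 and 21.5 CPM under isoproterenol. The isoproterenol libraries lay above the vehicle libraries of their genotype. For Loxl2 the log2 fold change with isoproterenol was 0.72 (SE 0.110, edgeR adjusted p = 6.63e-05) in WT. In KO Loxl2 had 0.63 (SE 0.109, adjusted p = 0.000297), or 0.54 (adjusted p = 0.000819) without KO isoproterenol replicate 5. Loxl3, another enzyme of the same family, measured 5.10, 4.82, 3.17, 4.38 and 4.00 CPM in the WT vehicle libraries and 7.97, 7.28, 5.90, 6.79 and 6.85 CPM in the WT isoproterenol libraries. Loxl3 in the KO measured 5.21, 4.67, 4.48, 5.52 and 4.21 CPM under vehicle and 7.58, 9.02, 6.65, 7.33 and 11.4 CPM under isoproterenol. The groups did not overlap, although WT isoproterenol replicate 3 was close to the highest vehicle library. The Loxl3 log2 fold change with isoproterenol was 0.71 (SE 0.140, edgeR adjusted p = 0.00129) in WT. In KO Loxl3 had 0.81 (SE 0.135, adjusted p = 0.000189), or 0.67 (adjusted p = 0.000729) without KO isoproterenol replicate 5. Pcolce, an enhancer of procollagen C-proteinase, measured 21.0, 18.4, 18.1, 17.2 and 20.0 CPM in the WT vehicle libraries and 27.0, 26.9, 25.1, 24.6 and 24.2 CPM in the WT isoproterenol libraries. Pcolce in the KO measured 21.1, 19.7, 21.3, 21.4 and 20.6 CPM under vehicle and 26.1, 29.2, 23.8, 30.6 and 28.6 CPM under isoproterenol. Its libraries spread little within a group, and the groups stood apart. Pcolce had a log2 fold change with isoproterenol of 0.43 (SE 0.0703, edgeR adjusted p = 0.000147) in WT. In KO Pcolce had 0.41 (SE 0.0694, adjusted p = 0.000224), or 0.40 (adjusted p = 0.000463) without KO isoproterenol replicate 5. Pcolce2, a related enhancer, rose by 0.76 (adjusted p = 0.0384) in KO, or 0.37 (adjusted p = 0.0171) without replicate 5. The Pcolce2 call was lost without KO vehicle replicates 1, 2, 3, 4 or 5 (adjusted p up to 0.0895). In WT Pcolce2 had 0.39 (adjusted p = 0.333), which passed in the fit without KO isoproterenol replicate 5 (adjusted p = 0.00728).

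Lox, Loxl1 and Serpinh1 did not pass in either genotype, and in each of the 3 KO isoproterenol replicate 5 was far above the rest of its group. Lox, lysyl oxidase, measured 9.84, 5.80, 3.68, 3.65 and 4.54 CPM in the WT vehicle libraries and 8.95, 8.18, 11.6, 6.14 and 5.17 CPM in the WT isoproterenol libraries. Lox in the KO measured 10.4, 5.35, 4.86, 5.05 and 5.18 CPM under vehicle and 9.33, 9.27, 6.60, 10.2 and 74.1 CPM under isoproterenol. Replicate 5 of KO isoproterenol stood far above the others of its group. For Lox the log2 fold change with isoproterenol was 0.55 (SE 0.651, edgeR adjusted p = 0.671) in WT. In KO Lox had 1.85 (SE 0.602, adjusted p = 0.0664), or 0.52 (adjusted p = 0.387) without KO isoproterenol replicate 5. Lox passed in KO without KO isoproterenol replicate 3 (2.08, adjusted p = 0.0359). Serpinh1, a collagen chaperone of the endoplasmic reticulum, measured 87.2, 70.0, 78.8, 78.3 and 84.5 CPM in the WT vehicle libraries and 74.4, 96.7, 93.8, 73.1 and 84.7 CPM in the WT isoproterenol libraries. Serpinh1 in the KO measured 79.6, 83.1, 92.9, 94.8 and 93.4 CPM under vehicle and 75.3, 71.8, 74.2, 73.1 and 152 CPM under isoproterenol. In KO isoproterenol the first 4 libraries lay below all KO vehicle libraries, and replicate 5 lay above all of them. The Serpinh1 log2 fold change with isoproterenol was 0.08 (SE 0.174, edgeR adjusted p = 0.831) in WT. In KO Serpinh1 had 0.01 (SE 0.174, adjusted p = 0.98), or −0.27 (adjusted p = 0.0321) without KO isoproterenol replicate 5. Without that library Serpinh1 was thus the member that fell in KO. Loxl1, a lysyl oxidase-like enzyme needed for elastic fibre upkeep, had 0.36 in WT and 0.71 in KO, or 0.29 without replicate 5.

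The remaining 6 glycoproteins held 3 that rose in WT and 5 that rose in KO, or 4 in KO without KO isoproterenol replicate 5. Olfml2b, an olfactomedin-like secreted protein, measured 18.2, 14.0, 15.5, 15.3 and 13.2 CPM in the WT vehicle libraries and 35.6, 45.0, 40.9, 39.7 and 32.2 CPM in the WT isoproterenol libraries. Olfml2b in the KO measured 12.1, 12.0, 15.9, 14.6 and 14.9 CPM under vehicle and 23.0, 33.1, 30.7, 34.9 and 72.8 CPM under isoproterenol. All isoproterenol libraries lay above the vehicle libraries of their genotype. Olfml2b had a log2 fold change with isoproterenol of 1.35 (SE 0.237, edgeR adjusted p = 0.0017) in WT. In KO Olfml2b had 1.50 (SE 0.237, adjusted p = 0.000697), or 1.14 (adjusted p = 2.88e-06) without KO isoproterenol replicate 5. Olfml3, another olfactomedin-like protein, measured 10.9, 10.3, 10.3, 10.5 and 10.7 CPM in the WT vehicle libraries and 13.2, 14.1, 16.2, 14.0 and 16.5 CPM in the WT isoproterenol libraries. Olfml3 in the KO measured 12.6, 12.1, 14.5, 13.5 and 11.5 CPM under vehicle and 13.8, 19.9, 13.3, 15.6 and 16.2 CPM under isoproterenol. The WT groups stood apart, and the KO groups overlapped. For Olfml3 the log2 fold change with isoproterenol was 0.49 (SE 0.0946, edgeR adjusted p = 0.00111) in WT. In KO Olfml3 had 0.30 (SE 0.0926, adjusted p = 0.0375), or 0.29 (adjusted p = 0.0607) without KO isoproterenol replicate 5. Ecm1, a secreted glycoprotein that binds perlecan, measured 17.9, 23.2, 16.6, 21.5 and 17.6 CPM in the WT vehicle libraries and 23.9, 24.1, 20.2, 19.3 and 17.9 CPM in the WT isoproterenol libraries. Ecm1 in the KO measured 26.6, 19.6, 17.7, 15.9 and 22.3 CPM under vehicle and 30.0, 37.8, 25.1, 32.9 and 36.5 CPM under isoproterenol. WT groups overlapped, and in the KO 1 vehicle library, replicate 1, lay above 1 isoproterenol library, replicate 3. The Ecm1 log2 fold change with isoproterenol was 0.13 (SE 0.139, edgeR adjusted p = 0.635) in WT. In KO Ecm1 had 0.66 (SE 0.136, adjusted p = 0.00378), or 0.62 (adjusted p = 0.0139) without KO isoproterenol replicate 5. The Olfml3 call in KO was lost without KO vehicle replicates 1, 2 or 5, or KO isoproterenol replicates 2, 4 or 5 (adjusted p up to 0.157).

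Matn2, a matrilin that forms filaments, rose by 0.34 (adjusted p = 0.026) in WT and 0.38 (adjusted p = 0.0116) in KO, or 0.29 (adjusted p = 0.0471) without replicate 5. The WT call was lost without WT vehicle replicates 1, 4 or 5, or WT isoproterenol replicate 3 (adjusted p up to 0.0871). Mgp, matrix Gla protein and an inhibitor of calcification, rose by 0.48 (adjusted p = 0.0415) in KO, or 0.25 (adjusted p = 0.0182) without replicate 5. In WT its value was 0.27 (adjusted p = 0.268), which passed in the fit without that library (adjusted p = 0.0057). The KO call of Mgp was lost without WT vehicle replicates 1, 2, 3 or 4, WT isoproterenol replicates 3 or 4, or KO vehicle replicates 1, 2, 3, 4 or 5 (adjusted p up to 0.0882). Ecm2, a leucine-rich matrix protein, had 0.07 in WT and 0.25 in KO, or −0.04 without replicate 5, and passed in neither.

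**Figure D3:**
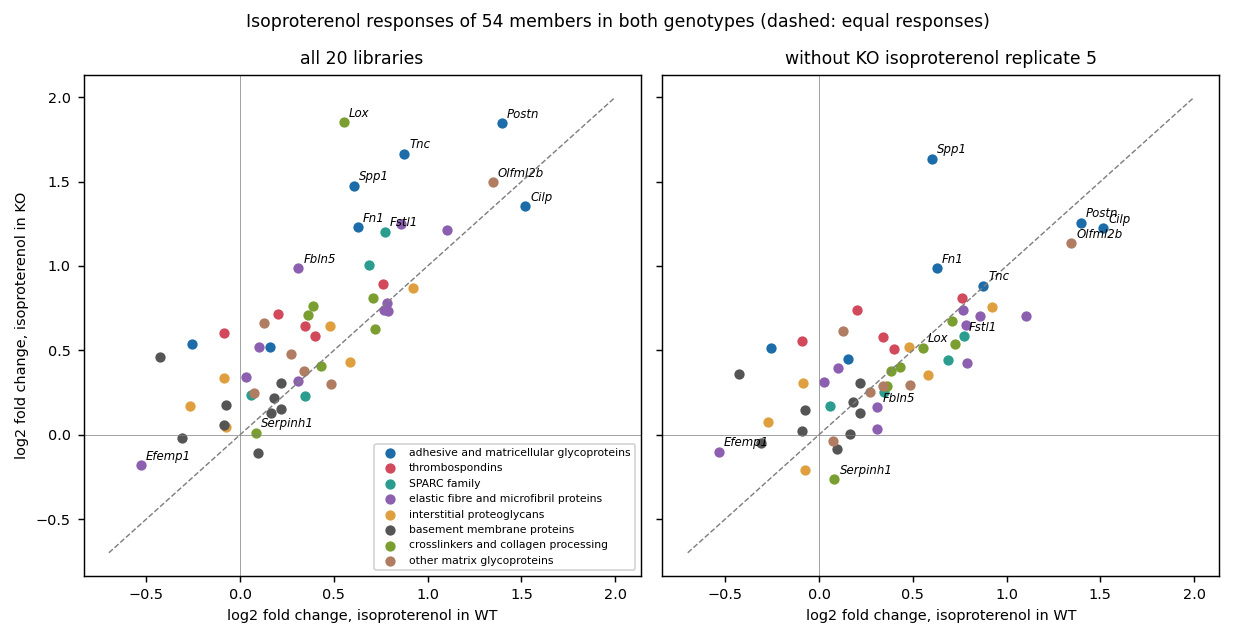
Log2 fold change with isoproterenol of the 54 members in WT (horizontal) against KO (vertical), with all libraries (left) and without KO isoproterenol replicate 5 (right). Points are members, coloured by class, and the dashed line marks equal responses. With all libraries 40 of 54 points lie above the line of equal response, and 24 do without that library.

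Loss of OGFOD1 was compared within each treatment. Under vehicle 0 of 54 members passed the edgeR test, where 0.128% of all tested genes did. At an unadjusted p under 0.05, 4 members had a difference (7.41%), against 8.31% of all tested genes. Without KO isoproterenol replicate 5, whose group is not in this comparison but shares the estimate of spread, these were 11 members (20.4%), against 9.68%. The log2 fold change of KO against WT was above 0 for 42 of 54 in both fits, with a median of 0.10, and 0 members passed by DESeq2, by limma-voom or on leaving out any 1 library. Of all 14878 tested genes 7559 were above 0 in the fit of all libraries. The smallest p was that of Olfml3, which read 10.9, 10.3, 10.3, 10.5 and 10.7 CPM in WT and 12.6, 12.1, 14.5, 13.5 and 11.5 CPM in KO vehicle libraries. Its KO libraries lay above its WT libraries, at 0.28 (SE 0.0948, adjusted p = 0.342). Mfap4 was the other member without overlap, at 7.60, 6.15, 6.85, 7.57 and 8.00 CPM in WT and 10.6, 9.84, 10.4, 9.97 and 10.3 CPM in KO (0.49, SE 0.310, adjusted p = 0.726). A fit of only the groups compared called Mfap4. Of all tested genes 0.995% were higher in KO without overlap.

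Under isoproterenol 0 of 54 members passed, where 0.181% of all tested genes did, and 26 had an unadjusted p under 0.05 (48.1%, against 13.0% of all tested genes). The log2 fold change of KO against WT was above 0 for 52 of 54, with a median of 0.26. Over all tested genes it was above 0 for 7591 of 14878, with a median of 0.00. The members under that p were 19 (35.2%) without WT isoproterenol replicates 4 (against 10.5%) or 5 (against 10.8%). They were 35 (64.8%) without KO isoproterenol replicate 3 (against 14.2%). Without KO isoproterenol replicate 5 the median was 0.10, 40 of 54 were above 0 and 16 had an unadjusted p under 0.05 (29.6%, against 11.2%). Ecm1 had the smallest p, with all KO isoproterenol libraries (25.1 to 37.8 CPM) above all WT isoproterenol libraries (17.9 to 24.1 CPM), where 1.01% of all tested genes were higher without overlap. Its log2 fold change was 0.62 (SE 0.137, adjusted p = 0.0697), or 0.58 (adjusted p = 0.131) without replicate 5. Spp1 had 1.08 (SE 0.275, adjusted p = 0.097), and without that library 1.24 (SE 0.268, adjusted p = 0.0423), which made it the 1 member called there (0.107% of all tested genes were higher). The count called was 6 by DESeq2, where 1.74% of the 7938 genes given an adjusted p were called. It was 2 by limma-voom with quality weights (0.417% of 14878 genes) and 8 without the filter on low counts (0.768% of 32544 genes). These shares count genes of either direction. Both genotype comparisons share their libraries with the isoproterenol comparisons and are not independent of them.

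The difference between the isoproterenol responses of KO and WT passed for 0 of 54 members and for 0% of all tested genes, and DESeq2 and limma-voom called 0 members. At an unadjusted p under 0.05 there were 14 members (25.9%), against 7.68% of all tested genes. These were 8 (14.8%) without WT vehicle replicate 4 (against 6.59%) or KO vehicle replicate 2 (against 7.33%), and 9 (16.7%) without WT vehicle replicate 2 (against 6.24%) or WT isoproterenol replicates 4 (6.55%) or 5 (6.97%). The median difference was 0.18 in favour of KO, and −0.03 without KO isoproterenol replicate 5, when 24 of 54 members had the larger rise in KO. A member that passed in KO and not in WT is therefore not shown to respond differently between genotypes. The largest differences were in Lox (1.30, SE 0.885), Hspg2 (0.89, SE 0.408) and Spp1 (0.87, SE 0.429). Without the library they were −0.04, 0.79 and 1.04.

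The weight of KO isoproterenol replicate 5 differed between members. Leaving it out lowered the KO log2 fold change of 47 of 54 members, by over 0.3 for 12 of them, and moved 28 by under 0.1. The largest falls were those of Lox, from 1.85 to 0.52, Fbln5, from 0.99 to 0.16, and Tnc, from 1.67 to 0.88. Fbln2 stayed at 0.74, Lamc1 went from 0.30 to 0.31 and Thbs4 from 0.72 to 0.74. By class, the median excess of that library over the other 4 was 1.04 on the log2 scale for crosslinkers, 1.03 for the SPARC family and 0.76 for elastic fibre genes. It was 0.29 for thrombospondins and 0.17 for basement membrane genes. Other libraries leaned the other way. KO isoproterenol replicate 3 was the lowest of its group for 35 of 54 members, and for 2965 of all 14878 tested genes. WT isoproterenol replicate 5 was the lowest of its group for 30 of 54 members, and for 3636 of all 14878 tested genes.

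**Figure D4:**
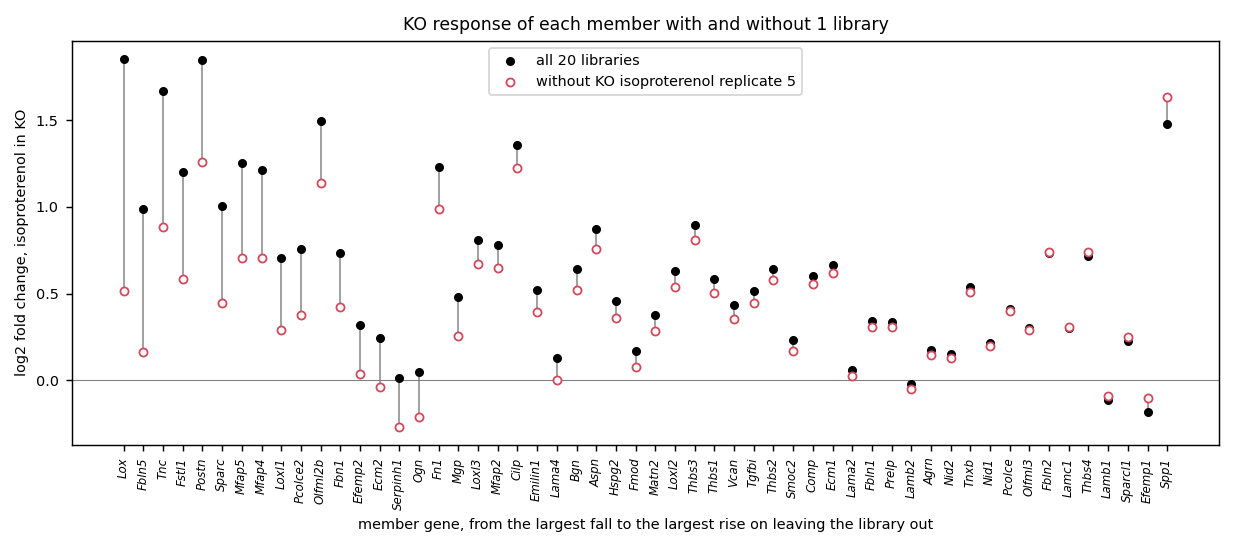
KO log2 fold change with isoproterenol (vertical axis) of each of the 54 members (horizontal axis), with all libraries (filled) and without KO isoproterenol replicate 5 (open). Lox, Fbln5 and Tnc at the left drop most, Fbln2 stays in place and Spp1 at the right rises.

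Levels between genes were compared per kilobase of exon. In WT vehicle hearts Sparcl1 was highest, at 62.3 ± 2.50 CPM per kilobase (SD, n = 5), followed by Mgp at 47.5 ± 3.22. Hspg2 (33.2 ± 7.75), Sparc (33.2 ± 4.32), Lamb2 (32.9 ± 1.66) and Serpinh1 (32.7 ± 2.71) came next and did not differ beyond their spread. In KO isoproterenol hearts Sparcl1 had 73.5 ± 3.06 and Sparc 75.3 ± 54.6, the latter with replicate 5. Of the level per kilobase summed over the 54 members in WT vehicle hearts, Sparcl1 made up 12.55% and Mgp 9.569%. The lowest in WT vehicle hearts were Mfap2 at 0.822 ± 0.162, Tnc at 0.493 ± 0.128 and Spp1 at 0.330 ± 0.108 CPM per kilobase. With isoproterenol the summed CPM of the 54 members ranged from 2696 to 3510 in WT, against 2522 to 2911 under vehicle. In KO it ranged from 3210 to 3920, and 5793 in replicate 5, against 2570 to 3068 under vehicle.

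A further list of 65 matrix genes outside the 54 was counted for background, of which 51 were tested. Some of these genes, such as Chad and Dcn, are also among the cell type markers below. The counts of those lists are therefore not independent. In WT 6 rose and 2 fell, where 4.64% and 4.12% of all tested genes did. In KO 14 rose and 1 fell, where 4.75% and 4.29% of all tested genes did. The counts were 10 and 2 in WT and 13 and 1 in KO without KO isoproterenol replicate 5. Of all tested genes in that fit 6% rose in WT and 4.08% in KO, while 785 of 15017 fell in WT and 3.48% in KO. The list summed to 3746 CPM in KO isoproterenol replicate 5 against at most 1668 CPM in the other 4, and 25 of the 51 genes were highest there. Emilin2, an elastin interface protein, rose by 0.84 (adjusted p = 1.54e-05) in WT and 1.03 (adjusted p = 8.30e-07) in KO. Svep1, a large adhesion protein, rose by 0.50 (adjusted p = 0.000496) and 0.62 (adjusted p = 3.60e-05). The medians of the 51 genes were 0.16 in WT and 0.27 in KO, or 0.17 in KO without that library.

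Markers of some cell types also changed with isoproterenol. Among all tested genes 4.64% rose and 4.12% fell in WT, and 4.75% rose and 4.29% fell in KO. Of 10 fibroblast markers 5 rose in WT and 3 in KO, and their summed level was 999 to 1139 CPM in WT vehicle and 1209 to 1295 CPM in WT isoproterenol libraries. In KO it was 1116 to 1270 CPM under vehicle and 1327 to 1432 CPM under isoproterenol. Pi16, a marker of adventitial fibroblasts, rose by 0.88 (adjusted p = 3.03e-08) in WT and 0.86 (adjusted p = 5.54e-08) in KO, and Lum, a proteoglycan of fibroblasts, by 0.56 and 0.64 (adjusted p = 0.000297 and 4.30e-05). Of 14 macrophage markers 6 rose in WT and 4 in KO, among them Lgals3 (0.81 and 0.86) and Mrc1 (0.52 and 0.44). Pericyte markers rose for 3 of 7 in each genotype, with Rgs5 at 0.43 (adjusted p = 3.37e-05) in WT and 0.17 (adjusted p = 0.0841) in KO. Of 10 endothelial markers 3 rose in WT, with Pecam1 at 0.29, and 1 fell in KO, Kdr at −0.31. Smooth muscle markers rose for 0 of 10 in either genotype, and Smtn fell in WT (−0.23, adjusted p = 0.0388). Cardiomyocyte markers fell for 3 of 8 in WT and 2 of 8 in KO, with Myl2 at −0.40 and −0.47. Erythroid and platelet markers rose for 1 of 8 in WT, Pf4 at 0.69, and atrial markers fell for 3 of 5 in KO, with Myl7 at −0.61. No adipocyte, epicardial or Schwann cell marker passed in either genotype. Of 7 cartilage and tendon markers tested, Acan rose in KO (1.49) and Cnmd fell in WT (−1.34) and in KO (−1.08). On leaving out KO isoproterenol replicate 5 Cnmd did not pass in KO (−0.88, adjusted p = 0.132) and Acan had 1.00 (adjusted p = 0.0252). In that fit pericyte markers rose for 4 of 7 in WT and 2 in KO, fibroblast markers for 6 of 10 in WT and 3 in KO, and macrophage markers for 7 of 14 in WT and 4 in KO. Cardiomyocyte markers then rose for 1 in each genotype and fell for 4 in WT and 2 in KO, and 1 erythroid or platelet marker fell in WT. Of all tested genes in that fit 6% rose in WT and 4.08% in KO, while 785 of 15017 fell in WT and 3.48% in KO. The part of these cell types in the values of the members was not tested.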

How the data were processed

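Per the labels' protocols, frozen hearts were powdered, and RNA of an aliquot went into a stranded kit for total RNA. The deposited values were raw counts per gene for 20 libraries, made by the authors with HISAT2 2.1.0 and featureCounts 1.6.3 on GRCm38, per the submitters' processing notes (R 3.6.0 and limma 3.40.6 are listed too). Strand setting, annotation release and handling of multi-mapped reads are not given in the sources used here, which leaves members with overlapping genes uncertain. These members are Fn1, Tnc, Tnxb, Spp1, Thbs1, Thbs3, Fbn1, Efemp2, Mfap4, Prelp, Aspn, Lama2, Nid1, Nid2, Lox, Loxl2, Loxl3, Pcolce, Ecm1 and Matn2. Groups came from the labels, and replicates were numbered in the order of the records. IDs were matched to GENCODE vM21 (55154 of 55335, 54587 with the same version), and 0 columns lacked a sample.

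Counts were fitted in R 4.3.3 with edgeR 4.0.16: filterByExpr (14878 genes left), TMM scaling, and 1 robust quasi-likelihood fit over all 20 libraries with a mean per group and 16 residual degrees of freedom. The common biological coefficient of variation was 0.119. The threshold was a Benjamini-Hochberg adjusted p under 0.05 over all tested genes, and only members are given. The SE was derived from the F statistic. CPM are after TMM scaling. Promoter windows of 250 bases came from RefSeq on GRCm38.p6, in which 38 members were found. No libraries of a group agreed within sampling noise (smallest chi-square per degree of freedom 3.03).

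The members, lists and classes were chosen with earlier results of these data known, and the motifs were chosen after the data were seen. Up to 3 members per class, those with the smallest p in either isoproterenol comparison, have values in every library, and every other member that passed is named, as are up to 2 genes with the smallest p per further list. Postn, Fn1, Tnc, Lox, Serpinh1, Hspg2, Fbn1 and Fbln5 have values of libraries by choice after these were seen. On simulated counts with 200 changed genes, the WT comparison recovered 58% of 1.5-fold and 79% of 2-fold changes with 9 false among 146 calls over 14741 genes. The KO comparison recovered 56% and 83% (5 false of 144, 14714 genes), KO against WT under vehicle 62% and 81% (11 false of 154, 14726 genes), and the difference between responses 34% and 65% (0 false of 99, 14734 genes). The simulated counts were drawn separately for each gene, so that no library stood apart over many genes as KO isoproterenol replicate 5 did. These rates therefore do not cover data with such a library. Alternatives were RLE and upper quartile scaling, no filter, DESeq2 1.42.0, limma-voom with quality weights (limma 3.58.1), only the groups compared, leaving out each library, and leaving out WT vehicle replicate 2 with KO isoproterenol replicate 5. Python 3.11.15 with matplotlib 3.10.9 drew the figures.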

Additional observations from a re-analysis of the deposited data

Results flagged for a closer look

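In each group of 5 libraries, the highest or lowest value of a member was marked when its gap to the next, divided by the range of the group, exceeded 0.71. This held in 28 of 216 groups (13.0%). Independent values with a normal distribution would give about 1 in 20. The members share their libraries, so that this rate is only a guide. In 18 of the 28 the value was the high one of KO isoproterenol replicate 5. These were Lox at 74.1 CPM, Tnc at 29.6 CPM, Fbln5 at 66.8 CPM, Fstl1 at 312 CPM, Postn at 386 CPM, Sparc at 653 CPM, Mfap5 at 69.2 CPM, Mfap4 at 50.6 CPM and Loxl1 at 66.8 CPM. The others were Pcolce2 at 28.1 CPM, Olfml2b at 72.8 CPM, Fbn1 at 283 CPM, Serpinh1 at 152 CPM, Ogn at 94.6 CPM, Ecm2 at 32.3 CPM, Lama4 at 96.6 CPM, Mgp at 138 CPM and Matn2 at 20.0 CPM.

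KO vehicle replicate 1 was the high one for Emilin1 (15.5 CPM), Mfap5 (14.9 CPM) and Lox (10.4 CPM). Thbs4 was high in KO vehicle replicate 4 (5.28 CPM) and in KO isoproterenol replicate 4 (9.94 CPM). In WT isoproterenol hearts Fstl1 was high in replicate 3 (107 CPM) and Fbln1 in replicate 2 (53.3 CPM), and Sparcl1 was low in replicate 5 (205 CPM). In WT vehicle hearts Sparcl1 was low in replicate 4 (170 CPM) and Prelp in replicate 1 (37.7 CPM). KO isoproterenol replicate 5 also held Eln at 1961 CPM and 8 of 10 smooth muscle markers above the rest of its group, and their part in these values was not tested.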

How the results depend on the processing

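No paired analysis was possible because the labels give the libraries no replicate number shared between groups. Of the 22 calls in WT, 16 held in all 27 alternatives, and of the 35 in KO, 20 did. Without the filter 6 KO calls (Thbs1, Sparc, Fbn1, Nid1, Pcolce2 and Mgp) and 3 WT calls (Fbn1, Mfap4 and Nid1) were lost. By limma-voom 5 KO calls were lost (Tnc, Comp, Sparc, Fbn1 and Olfml3, adjusted p 0.0509 to 0.0687). Upper quartile scaling lost Comp and Fbn1 in KO. RLE scaling and a fit of the WT groups alone each lost Nid1 in WT. Leaving out 1 library gave 14 to 27 members higher in WT (lowest without WT vehicle replicate 5) and 2 lower, and 24 to 39 higher (lowest without KO vehicle replicate 2) and 0 to 1 lower in KO. KO against WT gave 0 to 3 higher under isoproterenol, 0 under vehicle, and the difference between responses 0. Without WT vehicle replicate 2 or KO isoproterenol replicate 5, 3.73% and 6% of all tested genes rose in WT, and 4.89% and 4.08% in KO. Higher in KO than in WT under isoproterenol were 0.106% and 0.107%. For the other libraries left out no share is given. On leaving out KO isoproterenol replicate 5 together with WT vehicle replicate 2, 1 member was lower in KO, and 1 was higher in KO than in WT under isoproterenol. For that last comparison, 8 members passed without the filter, 6 by DESeq2, 2 by limma-voom with quality weights and 1 when no other groups entered the fit, which also called 1 under vehicle, Mfap4. The log2 fold change of Serpinh1 in KO, 0.01 in all libraries, was −0.010 with upper quartile scaling, −0.000159 without the filter, −0.19 by limma-voom and −0.27 with both of those libraries left out. On leaving out each library it ranged from −0.27 to 0.080, and was below 0 without KO vehicle replicate 1 (−0.025), KO vehicle replicate 2 (−0.011) or KO isoproterenol replicate 5. Apart from what leaving out libraries removes, the cause of these changes was not tested. Other scalings moved the median of all genes by under 0.1 on the log2 scale. Low counts limit Spp1 and Mfap2, which read at most 2.84 and 2.53 CPM.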
